A study of Mus musculus with 16 samples.

Results

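A set of 10 genes that mark alveolar macrophages, or that code for the growth factors these cells live on, were followed in whole left lungs of adult mice that had been exposed to smoke before birth. The genes were Marco, Msr1, Cd36, Mrc1, Itgax, Pparg, Fabp4, Fabp5, Csf1 and Csf2, a list named for its function. Every probe set annotated with exactly 1 of these symbols was taken, which gave 23 of the 45037 probe sets tested on an Affymetrix whole-genome mouse array, for 10 of 10 genes. The 4 groups, of 4 lungs each, were Balb/c females exposed in utero to sidestream smoke (SHS females), females exposed in utero to filtered air (air females), SHS males and air males. Sidestream smoke stood in for second-hand smoke, at 10 mg of particles per cubic metre for 5 hours a day on 7 days a week. All 16 mice, the air controls included, were sensitised with ovalbumin (OVA) injections at 19 and 21 weeks, received OVA aerosol in weeks 22 to 23 and gave their lungs at 23 weeks of age. No group without OVA was analysed here, so every difference below is one between OVA-challenged lungs. The labels name no litter for any mouse, so whether some of the 4 lungs of a group came from littermates is unknown.

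Alveolar macrophages sit on the air side of the alveolus, where they clear surfactant, particles and dying cells. They are seeded around birth, when GM-CSF (coded by Csf2 and made largely by alveolar type 2 cells) acts through PU.1 and induces PPAR-gamma (coded by Pparg), a nuclear receptor that turns on lipid uptake and handling genes such as Cd36 and Fabp4. M-CSF (coded by Csf1) is the main survival factor of monocytes and of macrophages in the tissue between the airspaces. None of the 10 genes belongs to alveolar macrophages alone: Cd36 and Fabp4 are also strong in capillary endothelium and fat, Itgax in dendritic cells, and Mrc1 and Msr1 in other macrophages.

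Values were log2 intensities as deposited. The array medians lay between 7 and 7.04. An intensity depends on the probes as well as on the RNA, so no probe set was set against another, and the position of a probe set in the brightness range is given as a description. SHS lungs were compared with air lungs within each sex by limma, with p-values adjusted by the Benjamini-Hochberg method over all 45037 probe sets, and a probe set was called at an adjusted p under 0.05. The mean correlation of SHS female 4 with the other SHS females was 0.9924, against 0.9951 with the air females, so calls that it changes, and the member differences it moves most, are given with and without it. Sftpc, the surfactant gene of alveolar type 2 cells, was near the top of the range in every lung, at 15.08 to 15.16 in SHS females and 14.98 to 15.14 in air females. Since RNA came from the whole lung, a change in the number of a cell type and a change in RNA per cell cannot be told apart.

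Mrc1 rose after SHS in both sexes, and Csf1 rose in males on 2 of its 4 probe sets. Averaged over the sexes, Mrc1, Msr1 (3 of 4 probe sets), Itgax and Csf1 (2 of 4) were called higher. No probe set of Marco, Cd36, Pparg, Fabp4, Fabp5 or Csf2 was called in any of these comparisons with all 16 lungs. In females 1 of the 23 probe sets was called, beside 2.87% of all probe sets (2.36% higher and 0.517% lower). In males 3 of 23 were called, beside 5.18% of all (3.07% higher and 2.11% lower), and in the average over the sexes 7 of 23, beside 10.3% of all (6.65% higher and 3.67% lower). All of these calls were on the higher side. The probe set of Mrc1 was 1 of 23 called higher in both sexes, as 1.33% of all probe sets were. The share called in females (1 of 23) was near the background, and probe sets of 1 gene share their RNA, so the 7 calls of the average stand for 4 genes.

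The differences of the 23 probe sets leaned to one side. All 23 differences were above 0 in females and 19 of 23 were in males, whereas 47.2% and 49.4% of all probe sets were. Members were chosen with earlier results of these lungs known and probe sets of 1 gene share their RNA, so the lean is a description. Their median log2 difference was 0.20 in females and 0.16 in males, beside -0.01 and 0 over all probe sets. Standard errors ranged from 0.07 to 0.27, so most single differences lay within the error of 4 lungs against 4. At an unadjusted p under 0.05 there were 8 of 23 in females, beside 7224 of all 45037 probe sets. The males had 4 of 23, beside 9096 of all 45037, a share not above that of all probe sets. All 4 SHS females were above all 4 air females for 2 of 23 probe sets (Mrc1 and 1 of Cd36), beside 5.61% of all probe sets. The same held in males for 9 of 23 (probe sets of Mrc1, Msr1, Cd36, Csf1 and Marco), beside 7.87% of all. None of the 23 had all SHS lungs below all air lungs, as 2.64% of all probe sets had in females and 7.51% in males.

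**Figure D1:**
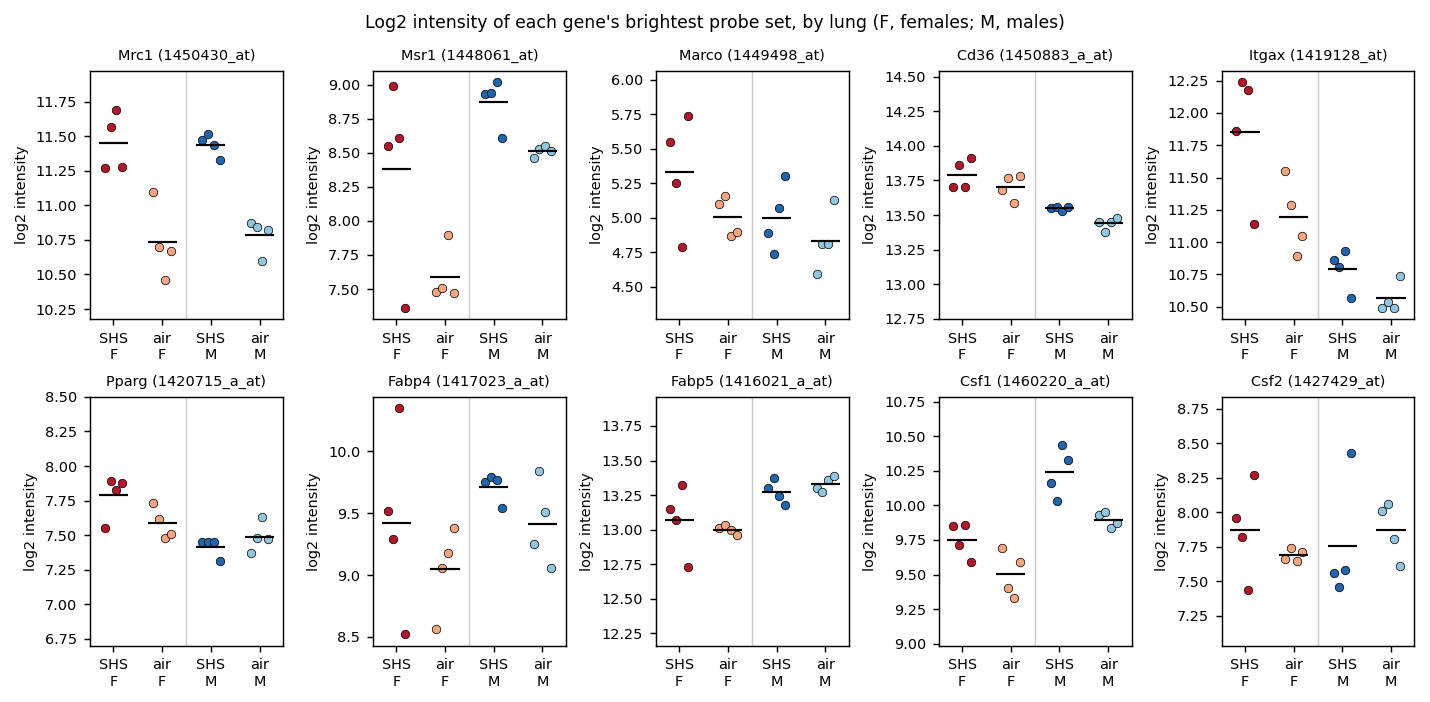
Log2 intensity of the brightest probe set of each of the 10 genes in each lung (points) with the group mean (black line); SHS lungs stand left of air lungs within each sex. The Mrc1 points of SHS lungs lie at 11.27 to 11.69 in females and 11.33 to 11.52 in males, above all air lungs of the same sex.

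**Figure D2:**
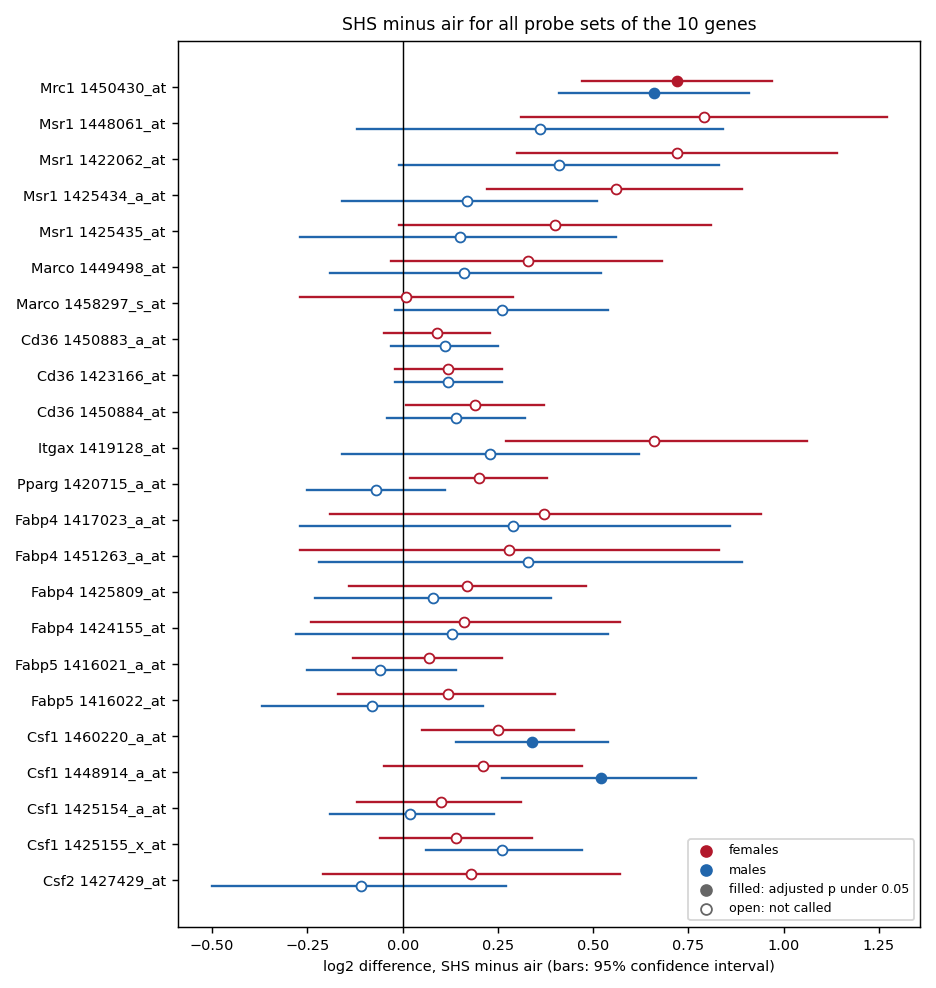
Log2 difference, SHS minus air, of all 23 probe sets in females and males, with 95% confidence intervals; filled points are called at an adjusted p under 0.05. Mrc1 is filled in both sexes and 2 Csf1 probe sets in males, and most of the other intervals include 0.

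Mrc1, on chromosome 2, codes for the macrophage mannose receptor, an endocytic lectin of alveolar and interstitial macrophages that interleukin-4 raises in mouse macrophages. Its 1 probe set (1450430_at) read 11.27, 11.57, 11.69 and 11.28 in SHS females, against 11.10, 10.70, 10.46 and 10.67 in air females. The same probe set read 11.47, 11.52, 11.44 and 11.33 in SHS males, against 10.87, 10.84, 10.60 and 10.82 in air males. Each SHS lung was above each air lung of its sex, which 1 of the 23 probe sets and 2.43% of all probe sets did in both sexes. The log2 difference was 0.72 ± 0.12 (SE, n = 4 lungs per group) in females, a 1.65-fold higher intensity (limma adjusted p = 0.0027). In males it was 0.66 ± 0.12, or 1.58-fold (limma adjusted p = 0.004). The female difference exceeded the male one by 0.06 (95% confidence interval -0.29 to 0.42, limma adjusted p = 0.944), so differences between the sexes within that interval were not resolved. Leaving out each of the 16 lungs in turn kept both calls, with a highest adjusted p of 0.014 in females and 0.0193 in males.

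Promoter sequences are shown for the called genes that RefSeq's promoter table (GRCm38.p6) covers, Mrc1, Itgax and Csf1, so that the letters upstream of their starts can be read beside the values. Each run holds 250 bases before and 50 after the annotated start, and capitals mark matches to a motif.
Mrc1 promoter (chr2:14229164-14229463, plus strand): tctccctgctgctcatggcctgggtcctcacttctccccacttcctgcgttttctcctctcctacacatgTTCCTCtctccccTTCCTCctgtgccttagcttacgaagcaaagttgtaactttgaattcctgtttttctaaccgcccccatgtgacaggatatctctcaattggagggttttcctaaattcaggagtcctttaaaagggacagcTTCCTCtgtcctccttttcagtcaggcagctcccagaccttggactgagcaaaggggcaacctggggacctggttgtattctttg
Itgax promoter (chr7:128129300-128129599, plus strand): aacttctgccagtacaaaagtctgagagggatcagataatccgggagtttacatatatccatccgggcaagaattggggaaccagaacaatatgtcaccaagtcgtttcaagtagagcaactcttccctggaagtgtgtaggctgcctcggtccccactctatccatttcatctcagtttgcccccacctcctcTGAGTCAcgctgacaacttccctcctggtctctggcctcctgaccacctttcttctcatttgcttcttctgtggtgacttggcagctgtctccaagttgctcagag
Csf1 promoter (chr3:107760420-107760719, minus strand): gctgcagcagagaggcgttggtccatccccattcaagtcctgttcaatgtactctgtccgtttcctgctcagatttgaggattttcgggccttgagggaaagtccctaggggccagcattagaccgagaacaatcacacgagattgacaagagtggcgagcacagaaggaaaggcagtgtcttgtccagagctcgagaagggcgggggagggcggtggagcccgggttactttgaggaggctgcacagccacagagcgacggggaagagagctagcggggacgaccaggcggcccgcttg
Both strands were searched for 6 motifs: GAGGAA (the ETS core with the flank that PU.1 prefers), TTGCNNAA (C/EBP), TGANTCA (AP-1), TTCNNNGAA (STAT), AGGTCA (a single nuclear receptor repeat) and, for the TATA box, TATAAA. The Mrc1 window held 3 matches to the PU.1 word on the opposite strand, read as TTCCTC, starting at positions -180, -167 and -35. The Itgax window held 1 AP-1 match, at -56, and the Csf1 window held no match to the 6 motifs. Among 32851 of the RefSeq mouse promoters, all of the same length, 28.3% held the PU.1 word at least once and 7.81% the AP-1 word. The C/EBP word was held by 10.8%, the STAT word by 8.3%, the nuclear receptor word by 16.3% and the TATA word by 13.6%. The share with 3 matches to a word was not counted. A match is a description of these letters and not evidence of binding.

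Msr1, on chromosome 8, codes for scavenger receptor A, which takes up modified lipoproteins and bacteria. Probe set 1448061_at read 8.55, 8.99, 8.61 and 7.36 in SHS females, against 7.48, 7.51, 7.90 and 7.47 in air females. Male lungs showed 8.93, 8.94, 9.02 and 8.61 after SHS, against 8.46, 8.53, 8.55 and 8.51 in air males. In females 3 SHS lungs were above all air lungs and SHS female 4 was below all of them, so the groups overlapped, while in males they did not. Probe set 1422062_at had the same order of lungs within each female group, at 8.78, 9.29, 9.09 and 7.87 in SHS females and 7.99, 8.04, 8.22 and 7.89 in air females. In SHS males it read 8.33, 8.45, 8.58 and 8.31, against 8.07, 7.95, 8.04 and 7.96 in air males, again without overlap. With group means taken out, the 4 Msr1 probe sets had pairwise r of 0.82 to 0.96 over 16 lungs, a description in which SHS female 4 lies far below its group. The probe sets did not order every group alike: air male 1 was the highest air male on 1422062_at and the lowest on 1448061_at.

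Averaged over the sexes, Msr1 was 0.57 ± 0.14 higher on 1422062_at (limma adjusted p = 0.0146), 0.57 ± 0.16 higher on 1448061_at (adjusted p = 0.0283) and 0.36 ± 0.11 higher on 1425434_a_at (adjusted p = 0.0445). The fourth probe set, 1425435_at, differed by 0.27 (limma adjusted p = 0.245) and was called without SHS female 4 (adjusted p = 0.000696). Within females the 4 differences were 0.72, 0.79, 0.56 and 0.40 in this order, with limma adjusted p-values of 0.0597, 0.0725, 0.0682 and 0.328, so none was called. Without SHS female 4 they were 1.02, 1.13, 0.76 and 0.70, and all 4 were called, with the highest adjusted p at 0.000561. Leaving out any other lung called none of them in females, with adjusted p-values up to 0.615. Within males the differences were 0.41, 0.36, 0.17 and 0.15 (limma adjusted p = 0.257, 0.403, 0.593 and 0.74), and without SHS female 4, which enters the shared estimate of spread, the first of them was called at the same difference (adjusted p = 0.0201). Of the 16 fits that each left out 1 lung, the averaged call on 1422062_at held in 16, on 1448061_at in 6 and on 1425434_a_at in 3.

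Itgax, on chromosome 7, codes for CD11c, the integrin chain that marks alveolar macrophages and dendritic cells in the mouse lung. It read 11.86, 12.24, 12.18 and 11.14 in SHS females, against 11.55, 11.29, 10.89 and 11.05 in air females. The SHS males had 10.86, 10.81, 10.93 and 10.57, against 10.49, 10.54, 10.49 and 10.74 in air males. As for Msr1, 3 SHS females were above all air females while SHS female 4 lay among them, and among males SHS male 4 lay below 1 air male. The difference was 0.66 ± 0.19 in females (limma adjusted p = 0.0648), 0.23 ± 0.19 in males (adjusted p = 0.541) and 0.45 ± 0.13 in the average (adjusted p = 0.0377). Without SHS female 4 the female difference was 0.90 and was called (limma adjusted p = 0.000571), and it was also called without air female 1, whereas leaving out each of the other 14 lungs gave no call (adjusted p up to 0.195). The averaged call held in 4 of 16 such fits. The female effect minus the male effect was 0.44 ± 0.26 (limma adjusted p = 0.698), so the sexes were not shown to differ.

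**Figure D3:**
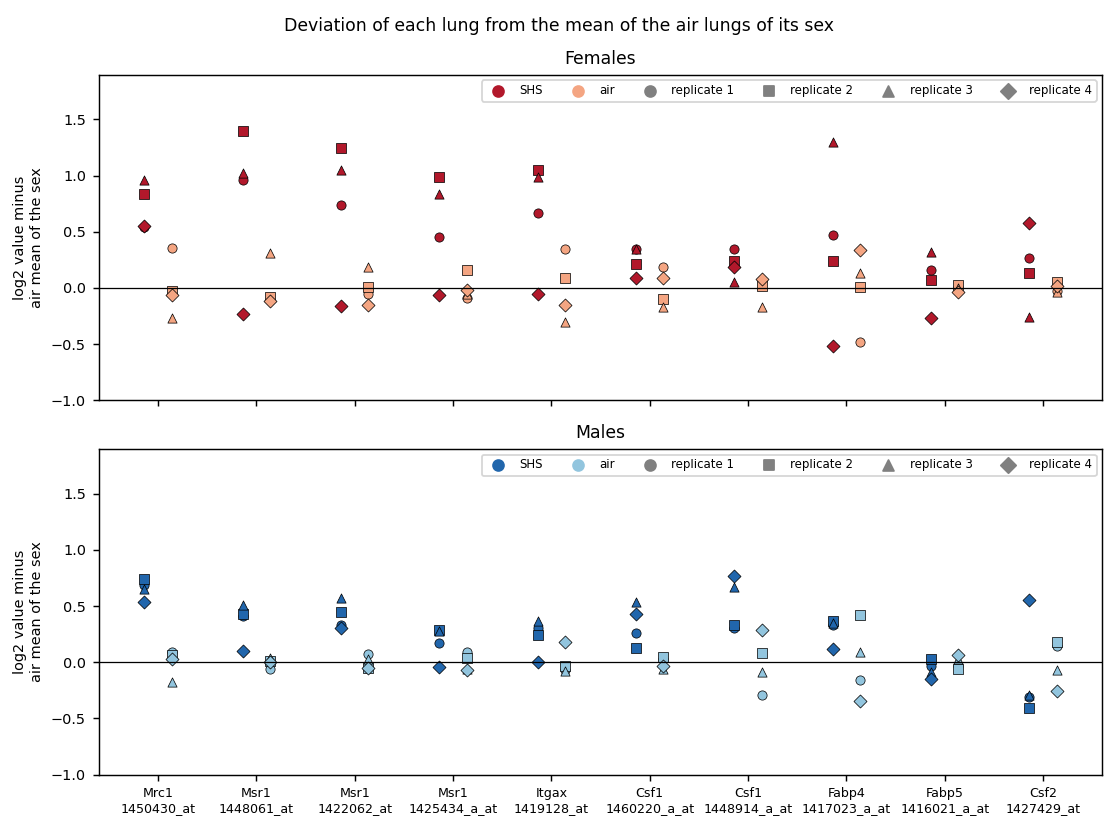
Log2 value of each lung minus the mean of the air lungs of its sex, for the 7 called probe sets and the brightest ones of Fabp4, Fabp5 and Csf2 (marker shape gives the replicate number; SHS lungs left of air lungs). SHS female 4 (diamond) is apart from the other SHS females for Msr1, Itgax, Fabp4 and Fabp5, and SHS male 4 is high for Csf2.

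Marco, on chromosome 1, codes for the scavenger receptor of alveolar macrophages that binds inhaled particles and bacteria. Both of its probe sets were dim, brighter on average than 20.9% (1449498_at) and 13.2% (1458297_s_at) of all probe sets, which limits what they can show. Probe set 1449498_at read 5.55, 5.25, 4.79 and 5.74 in SHS females, against 5.10, 5.16, 4.87 and 4.90 in air females. In SHS males it read 4.89, 4.74, 5.07 and 5.30, against 4.59, 4.81, 4.81 and 5.13 in air males. The groups overlapped in both sexes, with differences of 0.33 ± 0.17 in females (limma adjusted p = 0.363) and 0.16 ± 0.17 in males (adjusted p = 0.645). With 1 lung left out, the female difference ranged from 0.19 to 0.51 and the male one from 0.06 (without SHS male 4) to 0.26. Probe set 1458297_s_at differed by 0.01 in females (limma adjusted p = 0.979) and by 0.26 in males (adjusted p = 0.286), where it read 4.48 to 4.55 in SHS males and 4.10 to 4.38 in air males. Averaged over the sexes, 1449498_at was called without SHS female 3, its lowest SHS female lung, and with no other lung left out.

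Cd36, on chromosome 5, codes for a receptor for oxidised lipoproteins and a fatty acid transporter. Its 3 probe sets were bright, above 99.6%, 99.4% and 93% of all probe sets, and a change can be compressed near the top of the range. The log2 differences were 0.09 to 0.19 in females (limma adjusted p from 0.289 to 0.565) and 0.11 to 0.14 in males (adjusted p from 0.34 to 0.395). Probe set 1450884_at read 10.42, 10.55, 10.45 and 10.80 in SHS females, against 10.41, 10.42, 10.25 and 10.39 in air females, so the lowest SHS lung stood above the highest air lung by less than 0.01. Its difference of 0.19 ± 0.09 in females was not called (limma adjusted p = 0.289).

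Pparg, on chromosome 6, read 7.55, 7.89, 7.83 and 7.88 in SHS females, against 7.73, 7.62, 7.48 and 7.51 in air females. It read 7.45, 7.45, 7.45 and 7.31 in SHS males, against 7.37, 7.48, 7.63 and 7.47 in air males. In females 3 SHS lungs were above all air lungs, and in males the groups overlapped with the SHS lungs on the low side. The difference was 0.20 ± 0.09 in females (limma adjusted p = 0.244) and -0.07 ± 0.09 in males (adjusted p = 0.7). Of the 23 probe sets, that of Pparg alone had an unadjusted p under 0.05 for the female effect minus the male effect, which was 0.27 ± 0.12 (limma adjusted p = 0.583). No probe set on the array was called for that difference between the sexes (0% of 45037 in limma, with 3709 at an unadjusted p under 0.05).

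Fabp4 and Fabp5, both on chromosome 3, code for carriers of fatty acids inside the cell; Fabp4 is a PPAR-gamma target that is also abundant in fat. Fabp4 probe set 1417023_a_at read 9.52, 9.29, 10.35 and 8.52 in SHS females, against 8.56, 9.06, 9.18 and 9.38 in air females. The SHS males had 9.75, 9.79, 9.77 and 9.54, against 9.25, 9.84, 9.51 and 9.06 in air males. The SHS females held both the highest and the lowest of the 8 female lungs, and the differences were 0.37 ± 0.27 in females (limma adjusted p = 0.55) and 0.29 ± 0.27 in males (adjusted p = 0.598). The female difference was 0.67 without SHS female 4 and 0.06 without SHS female 3, and was called in neither case. The averaged difference was 0.48 and was called without SHS female 4 (limma adjusted p = 0.0422), and it was 0.18 and not called without SHS female 3 (adjusted p = 0.536).

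Fabp4 was set beside the fat cell marker Adipoq in the same lungs, since fat cells also carry Fabp4. Adipoq, which codes for adiponectin, read 7.51, 5.79, 8.71 and 5.60 in SHS females, against 4.74, 6.98, 7.25 and 7.52 in air females. Adipoq in SHS males read 6.86, 6.68, 6.95 and 7.27, against 5.72, 7.07, 5.76 and 4.96 in air males. Within air females the 4 lungs had the same order for Fabp4 and Adipoq, in air males both were highest in lung 2 and lowest in lung 4, and in SHS females both were highest in lung 3 and lowest in lung 4. In SHS males lung 4 was lowest for Fabp4 and highest for Adipoq. Adipoq differed by 0.28 in females (limma adjusted p = 0.887) and by 1.07 in males (adjusted p = 0.371). Over the 8 measured adipocyte markers, of which Cidec and Ucp1 were among the dimmest 25% of probe sets, the mean deviation from air lungs was -0.28 to 0.37 in SHS females and -0.36 to 0.32 in air females. It was 0.16 to 0.47 in SHS males and -0.14 to 0.16 in air males. The part of fat in the Fabp4 values was not tested.

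Fabp5 probe set 1416022_at read 11.53, 11.88, 11.85 and 11.07 in SHS females, against 11.54, 11.56, 11.46 and 11.31 in air females. Values in SHS males were 11.74, 11.70, 11.64 and 11.44, against 11.60, 11.61, 11.79 and 11.84 in air males. The groups overlapped in both sexes, with differences of 0.12 ± 0.14 in females (limma adjusted p = 0.743) and -0.08 ± 0.14 in males (adjusted p = 0.803). Without SHS female 4 the female difference was 0.29, and without SHS female 2 it was 0.02 (limma adjusted p = 0.0996 and 0.971). The brighter probe set, 1416021_a_at, was above 99.3% of all probe sets and differed by 0.07 in females (0.18 without SHS female 4) and by -0.06 in males.

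Csf1, on chromosome 3, has 4 probe sets that did not rank lungs alike (pairwise r within groups from -0.54 to 0.46), so each is given by itself. Probe set 1448914_a_at read 7.75, 7.78, 8.12 and 8.22 in SHS males, against 7.16, 7.54, 7.37 and 7.74 in air males, without overlap by a margin of 0.01. In SHS females it read 8.65, 8.54, 8.34 and 8.49, against 8.37, 8.32, 8.12 and 8.37 in air females, where SHS female 3 lay among the air lungs. The difference was 0.52 ± 0.12 in males, or 1.43-fold (limma adjusted p = 0.0214), 0.21 ± 0.12 in females (adjusted p = 0.44) and 0.36 ± 0.09 in the average (adjusted p = 0.012).

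Csf1 probe set 1460220_a_at read 10.16, 10.03, 10.44 and 10.33 in SHS males, against 9.93, 9.95, 9.84 and 9.87 in air males. In SHS females it read 9.85, 9.71, 9.86 and 9.59, against 9.69, 9.40, 9.33 and 9.59 in air females. The male groups did not overlap and the female groups did. The difference was 0.34 ± 0.10 in males (limma adjusted p = 0.049), 0.25 ± 0.10 in females (adjusted p = 0.192) and 0.30 ± 0.07 in the average (adjusted p = 0.00932). The female effect minus the male effect was -0.31 on 1448914_a_at and -0.09 on 1460220_a_at (limma adjusted p = 0.677 and 0.896). The sexes were thus not shown to differ on these probe sets. The other Csf1 probe sets differed in males by 0.02 (1425154_a_at, limma adjusted p = 0.928) and 0.26 (1425155_x_at, adjusted p = 0.125). Of 16 fits that each left out 1 lung, the male call on 1448914_a_at was lost in 4, without SHS male 3, SHS male 4, air male 1 or air male 3, with a highest limma adjusted p of 0.0781. The male call on 1460220_a_at held in 4 of the 16 (highest adjusted p of 0.163), while both averaged calls held in 16 of 16.

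Csf2, on chromosome 11, codes for GM-CSF. It read 7.96, 7.82, 7.44 and 8.27 in SHS females, against 7.66, 7.74, 7.65 and 7.71 in air females. In SHS males it read 7.56, 7.46, 7.58 and 8.43, against 8.01, 8.06, 7.81 and 7.61 in air males. The highest value in each sex was in the SHS lung numbered 4, and 3 SHS males were below all air males while SHS male 4 was above all of them. The difference was 0.18 ± 0.18 in females (limma adjusted p = 0.7) and -0.11 ± 0.18 in males (95% confidence interval -0.50 to 0.27, adjusted p = 0.793). The female difference was 0.05 without SHS female 4 and 0.33 without SHS female 3 (limma adjusted p = 0.927 and 0.471). Without SHS male 4 the male difference was -0.33, also not called (limma adjusted p = 0.206).

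Across the 16 lungs the 10 genes did not vary as one block. With group means taken out, Itgax had an r of 0.75 with Fabp5, 0.74 with Mrc1 and 0.72 with Msr1, and Msr1 had 0.74 with Fabp5, in the brightest probe set of each gene. Csf2 ran the other way, at -0.73 with Fabp5 and -0.62 with Itgax, and Marco, on a dim probe set, was at -0.73 with Fabp4. These coefficients describe lungs that share arrays and cell mixture, with SHS female 4 and SHS male 4 far from their groups. For a ranking of all genes, values were taken relative to the mean of the sex only, which keeps the difference between SHS and air lungs. Genes can rank high through that difference alone. The closest to Mrc1 were Kif23 (r = 0.977), Hk3 (0.971) and Lig1 (0.971). The closest to Itgax were Clec4a3 (0.974), Pdlim4 (0.97) and Cstb (0.968), and the closest to Msr1 1448061_at were Cklf (0.953), Slc7a11 (0.941) and Gda (0.94). For Csf1 1460220_a_at they were Cct7 (0.944), Med9 (0.934) and Rhou (0.932).

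The receptors and signalling partners of GM-CSF and M-CSF were measured for 22 of 23 listed genes, each through its brightest probe set. In females 1 of 22 was called higher and none lower, and in males 1 was called higher and 1 lower, beside 3.97% of all genes called in females and 6.63% in males. The median log2 difference of the list was 0.20 in females and 0.12 in males, beside 0 and 0.01 over all genes. Cish, a feedback inhibitor that STAT5 induces, was the gene called in both sexes, 0.65 higher in females (limma adjusted p = 0.00564) and 0.62 in males (adjusted p = 0.00568). Tgfbr1, a receptor chain for TGF-beta, was 0.39 lower in males (a log2 difference of -0.39, limma adjusted p = 0.00847). Its difference in females was -0.27 (limma adjusted p = 0.0854), and the female effect minus the male effect was 0.13 (adjusted p = 0.802). The receptor chains Csf2ra and Csf2rb differed by 0.29 and 0.35 in females (limma adjusted p = 0.203 and 0.3) and by -0.09 and 0.15 in males (adjusted p = 0.734 and 0.666). Both receptor chains were called in females without SHS female 4, at 0.40 and 0.54 (limma adjusted p = 0.0224 and 0.0169), as were Csf1r and Spi1 (adjusted p = 0.0445 and 0.00293). Csf1r, the receptor for M-CSF, differed by 0.20 and 0.11 (limma adjusted p = 0.205 in females and 0.466 in males), and Il34, its other ligand, by 0.19 and 0.23 (adjusted p = 0.285 and 0.14). Averaged over the sexes, 5 of the 22 genes were called higher and 1 lower, beside 13.5% of all genes called. Among these calls, Il34 was 0.21 higher (limma adjusted p = 0.0355) and Tgfbr1 differed by -0.33 (adjusted p = 0.00105). Spi1, which codes for PU.1, differed by 0.29 in females and 0.31 in males (limma adjusted p = 0.294 and 0.205), and Tgfb1 by 0.24 and 0.30 (adjusted p = 0.378 and 0.191). In males Spi1 was also called without SHS female 4 (limma adjusted p = 0.0313).

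Further PPAR-gamma targets and lipid handling genes were measured for 19 of 24 listed. None was called higher in either sex, and 1 was called lower in females and 3 in males, beside 123 (females) and 449 (males) of all 18193 genes called lower. The list medians were -0.03 and -0.06. Apoe, the lipoprotein that carries cholesterol out of macrophages, fell in both sexes, with a log2 difference of -0.51 in females (limma adjusted p = 0.018) and -0.64 in males (adjusted p = 0.00287). The cholesterol exporters Abca1 and Abcg1 fell in males, with differences of -0.57 (limma adjusted p = 0.00872) and -0.39 (adjusted p = 0.00545). In females Abca1 differed by -0.06 (limma adjusted p = 0.857), and the difference between the sexes was 0.51 for Abca1 and 0.27 for Abcg1, neither called (adjusted p = 0.471 and 0.548). The female Apoe call was lost without SHS female 2, air female 2 or air female 3. Lpl, a lipase that alveolar macrophages secrete, differed by 0.23 in females (limma adjusted p = 0.211) and -0.06 in males (adjusted p = 0.77).

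Other alveolar macrophage markers were measured for 16 of 18 listed. In females 1 was called higher and none lower, and in males none was called higher and 1 lower (Abcg1). These counts stand beside 3.97% of all genes called in females and 6.63% in males, and the list medians were 0.12 and -0.03. Olr1, the LOX-1 receptor for oxidised lipoprotein, read 8.64, 9.40, 9.37 and 8.59 in SHS females, against 8.61, 8.42, 8.20 and 7.94 in air females. Its difference was 0.71 in females (limma adjusted p = 0.0276), with SHS female 4 alone below the highest air lung, and exceeded the male difference by 0.56 (adjusted p = 0.568). Leaving out air female 2, 3 or 4 or SHS female 2 or 3 ended this call. Siglecf, the lectin that marks alveolar macrophages and eosinophils, differed by -0.32 in females (limma adjusted p = 0.567) and -0.54 in males (adjusted p = 0.216). It was lowest in both SHS lungs numbered 4, at 8.20 in SHS female 4 and 8.58 in SHS male 4. Without SHS female 4 the female difference was -0.08 (limma adjusted p = 0.889), and without SHS male 4 the male difference was -0.31 (adjusted p = 0.478). Car4, which was also on the list of endothelial markers, differed by 0.12 in females (limma adjusted p = 0.691, and 0.02 without SHS female 4) and 0.32 in males (adjusted p = 0.129), and Bhlhe41 by 0.08 and 0.06.

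Markers of other macrophages held calls in both sexes. Of 16 measured markers of interstitial and monocyte-derived macrophages, 4 were called higher and none lower in females, and 4 higher and 1 lower in males, beside 3.97% and 6.63% of all genes called in either direction. The list medians were 0.18 and 0.09. The same 4 genes were higher in both sexes. Cd163, the haemoglobin scavenger receptor, was 0.88 higher in females (limma adjusted p = 0.0112) and 1.41 in males (adjusted p = 0.000392). Folr2, a folate receptor of tissue macrophages, was 0.60 higher in females (limma adjusted p = 0.00138) and 0.69 in males (adjusted p = 0.000437). Pf4, a chemokine of platelets and tissue macrophages, was 0.77 higher in females (limma adjusted p = 0.00185) and 0.69 in males (adjusted p = 0.00302), and Cd14, the coreceptor for lipopolysaccharide, 0.69 (adjusted p = 0.00917) and 0.76 (adjusted p = 0.00335). Gpnmb, a membrane glycoprotein of macrophages, was lower in males, with a difference of -1.61 (limma adjusted p = 0.0136), and differed by -0.31 in females (adjusted p = 0.737).

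Of 14 genes of alternatively activated macrophages, the state that interleukin-4 and interleukin-13 induce in the mouse, 6 were called higher in females and 8 in males and none lower, beside 599 (females) and 758 (males) of all 18193 genes called higher. The list medians were 0.59 and 0.63. The largest called differences were those of Arg1, Ccl24, Ocstamp and Pdcd1lg2. Pdcd1lg2, which codes for the checkpoint ligand PD-L2, was 1.44 higher in females and 1.15 in males. With 1 lung left out at a time, the male calls held in 4 of 16 fits for Arg1 (limma adjusted p up to 0.128), 11 for Ccl24, 11 for Pdcd1lg2 and 14 for Ocstamp. The female calls held in 11 of 16 for Ccl24 and in 16 of 16 for the other 3 genes. Of 13 other scavenger receptors, 2 were called higher in females (Cd163 and Olr1) and 1 in males (Cd163), with medians of 0 and -0.04. This list was drawn up with results of these lungs known, as were the others, so its direction is a description.

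**Figure D4:**
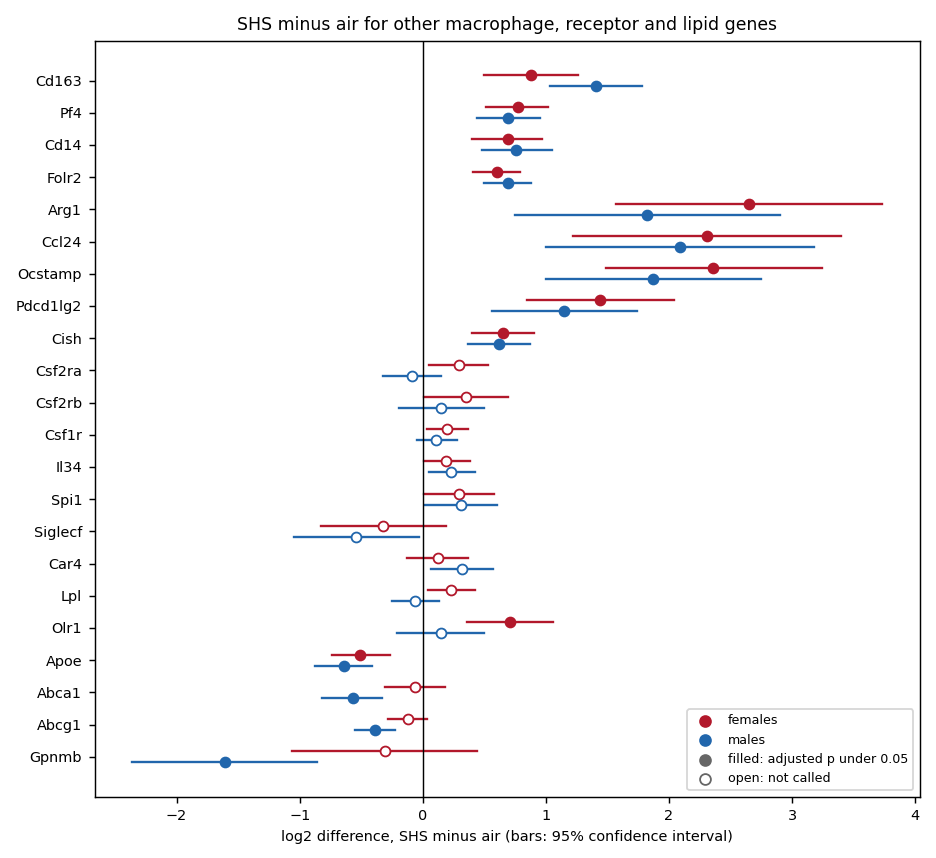
Log2 difference, SHS minus air, of 22 named genes of the related lists in females and males, with 95% confidence intervals; filled points are called at an adjusted p under 0.05. Cd163, Pf4, Cd14 and Folr2 are filled on the higher side in both sexes, Apoe on the lower side in both, and Csf2ra, Csf2rb, Csf1r, Siglecf, Car4 and Lpl in neither.

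Levels of whole marker lists were compared lung by lung as the mean deviation from the air lungs of the sex. The alternatively activated list stood at 0.99, 1.41, 1.28 and 0.12 in SHS females, against -0.06 to 0.12 in air females, and at 0.65 to 0.90 in SHS males, against -0.16 to 0.13 in air males. The interstitial and monocyte-derived list stood at 0.30, 0.33, 0.40 and -0.03 in SHS females, against -0.07 to 0.05 in air females, and at 0.24, 0.20, 0.19 and 0.01 in SHS males, against -0.07 to 0.07 in air males. SHS female 4, the lung with low Msr1 and Itgax, was thus low for both lists among SHS females. The other alveolar macrophage markers stood at 0.09 to 0.15 in SHS females, against -0.16 to 0.09 in air females, and at -0.15 to 0.01 in SHS males, against -0.06 to 0.09 in air males.

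Eosinophils, which also carry Siglecf, had 7 measured markers, Siglecf itself included, and no call in either sex. Their mean deviation was 0.47, 0.28, 0.73 and -0.85 in SHS females, against -0.12 to 0.08 in air females, and 0.39, 0.40, 0.08 and -0.62 in SHS males, against -0.24 to 0.09 in air males. Both SHS lungs numbered 4 were the lowest of their groups, in a mean that includes their low Siglecf values. Dendritic cell markers, measured for 13 genes, stood at -0.03 to 0.28 in SHS females and -0.05 to 0.06 in air females, and at 0.11 to 0.17 in SHS males and -0.09 to 0.05 in air males. Batf3, a dendritic cell transcription factor, was 0.73 higher in females (limma adjusted p = 0.0144) and 0.59 in males (adjusted p = 0.0347), and Cd209a was 0.46 higher in males (adjusted p = 0.0371). These were 1 of 13 genes in females and 2 of 13 in males, beside 3.97% and 6.63% of all genes called. With 1 lung left out at a time, Batf3 was called in 13 of 16 fits in females and 10 in males (limma adjusted p up to 0.0993), and Cd209a in 9 of 16 in males (up to 0.0954). The part of these cells in the Itgax and Mrc1 values was not tested.

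The remaining lists had few calls, beside 3.97% of all genes called in females and 6.63% in males. Of 8 neutrophil markers none was called in females and 1 was higher in males (Cxcr2, 0.59, limma adjusted p = 0.0161, lost without air male 3), with medians of 0.26 and 0.35. Of 12 endothelial markers 1 was lower in females (Tek, -0.46, limma adjusted p = 0.0356, called in 9 of 16 fits with 1 lung left out) and none was called in males, with medians of -0.18 and 0.01. Tek in males differed by -0.36 (limma adjusted p = 0.0769), with all SHS lungs below all air lungs. The male difference of Tek was called without SHS female 4 (limma adjusted p = 0.00893), as was its average over the sexes with all lungs (-0.41, adjusted p = 0.00307). Of 8 alveolar type 2 markers none was called in females and 1 was lower in males (Abca3, -0.23, limma adjusted p = 0.0485, called in 4 of 16 such fits), with medians of -0.08 and -0.15. None of 8 adipocyte markers (medians -0.06 and 0.15) and none of 3 red blood cell genes (medians -0.16 and -0.10) was called in either sex.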

How the data were processed

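RNA of 16 whole left lungs (4 groups of 4) was hybridised to 1-colour Affymetrix arrays. The deposited values are the authors' normalised log2 intensities per probe set; the background correction and normalisation behind them are not given in the sources used here. The submitters' processing notes name limma, with no version. Of 45101 features, 64 controls were left out, and 34945 of the 45037 others have 1 gene symbol in the platform annotation, 932 several and 9160 none. Genes were named through that annotation, 18193 in all, each represented in lists by its brightest probe set.

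The 4 group means were fitted in limma 3.58.1 (R 4.3.3) across all 16 arrays with eBayes, and 4 contrasts were tested: SHS minus air in females, in males, averaged, and the female effect minus the male effect. The fit has 12 residual and 5.56 prior degrees of freedom. The p-values were adjusted over all 45037 probe sets by the Benjamini-Hochberg method, with calls under 0.05. The fit was tested on simulated data. Alternatives were quantile normalisation, median centring, a filter on the dimmest 40% of probe sets, a replicate block, 1 sex alone, array weights, a trended robust prior, leaving out both SHS arrays numbered 4, and leaving out each array.

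Members and the 13 gene lists (159 of 179 entries have a probe set) were chosen with earlier results of these data known. All member probe sets are reported. Of each list, the up to 4 largest called differences per sex are named, plus 12 genes chosen whatever their values, and the 3 closest genes to each called member. The number of arrays limits the precision. P-values measure the spread between lungs labelled as biological replicates. No 2 arrays were identical.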

Additional observations from a re-analysis of the deposited data

Results flagged for a closer look

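In 6 of 92 groups of 4 lungs (6.52%), the highest or lowest value of a member probe set lay further from its neighbour than Dixon's 95% critical value for 4 samples allows, where chance gives about 5% of groups. SHS female 4 was lowest for Msr1 1425435_at, at 5.03, beside 6.09 to 6.28 in the other SHS females. Air female 3 was highest for Msr1 1448061_at, at 7.90. SHS male 4 was lowest for Pparg, at 7.31, lowest for Fabp4 1417023_a_at, at 9.54, and highest for Csf2, at 8.43. SHS male 2 was highest for Csf1 1425155_x_at, at 7.04. Of the 6 values, 3 came from SHS male 4 and 1 from SHS female 4.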

How the results depend on the processing

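Called in females were 1294 probe sets, against 448 with females fitted alone, 3985 with array weights, 3954 without both SHS lungs numbered 4 and 657 to 3604 with 1 lung left out (lowest without SHS female 1, highest without SHS female 4). Of the 23 member probe sets 1 was called in females, against 4 without the dimmest 40% of probe sets, 7 with array weights, 6 without both SHS lungs numbered 4 and 1 to 6 with 1 lung left out. In males 2332 were called, against 4398 with array weights and 1073 to 3153 with 1 lung left out. The 3 member calls in males became 1 to 4, with 1 left without SHS male 3, SHS male 4, air male 1 or air male 3. In the average 4652 were called, against 7717 with array weights, 7520 without both SHS lungs numbered 4 and 3514 to 6983 with 1 lung left out, and the 7 member calls became 4 to 9. The difference between the sexes had 0 calls in every limma setting tried. Of the probe sets called in females 82% were higher, against 70.6% after quantile normalisation. The cause of these shifts was not tested. With the replicate number as a block, 1537 probe sets were called in females (4 members), 2439 in males (2 members) and 5061 in the average (7 members). Same-numbered SHS and air lungs had correlations of deviations from -0.08 to 0.267 in females and 0.02 to 0.115 in males. SHS females were not set against SHS males in this way, and whether the numbers stand for a shared batch was not tested.

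Mrc1 was called in both sexes under every alternative. Over the 8 alternatives other than leaving out 1 lung, with males fitted alone among them, the male call on Csf1 1448914_a_at held in 6 (limma adjusted p up to 0.0591). That on 1460220_a_at held in 5 (limma adjusted p up to 0.0764). The averaged calls were lost for Itgax under the trended robust prior (limma adjusted p = 0.0619) and for Msr1 1425434_a_at after quantile normalisation (adjusted p = 0.0503). Signs turned for the following uncalled values. Marco 1458297_s_at in females was -0.19 with array weights and -0.14 without both SHS lungs numbered 4, Gpnmb in females was 0.13 without both, and Csf2 in the average was -0.03 with array weights and -0.14 without both. After quantile normalisation Sftpc was -0.02 in females and -0.08 in males, and Fabp5 in the average was -0.03 (1416021_a_at) and -0.02 (1416022_at). With 1 lung left out, the ranges in females were -0.14 to 0.11 for Marco 1458297_s_at, -0.09 to 0.37 for Fabp4 1424155_at, -0.01 to 0.18 for Fabp5 1416021_a_at, -0.02 to 0.14 for Bhlhe41, -0.13 to 0.01 for Abca1, -0.57 to 0.13 for Gpnmb, -0.35 to 0.71 for Adipoq and -0.01 to 0.04 for Sftpc. In males they were -0.04 to 0.17 for Fabp4 1425809_at, -0.03 to 0.07 for Csf1 1425154_a_at and -0.01 to 0.11 for Bhlhe41, and in the average -0.04 to 0.06 for Fabp5 1416021_a_at, -0.03 to 0.10 for Fabp5 1416022_at and -0.08 to 0.11 for Csf2.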
